A study of Mus musculus with 35 samples.

Results

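Styrene is oxidised in the lung to styrene oxide by cytochrome P450 enzymes, and microsomal epoxide hydrolase opens the oxide to styrene glycol. The genes described here are 9 listed genes of these steps: the P450 genes Cyp2f2, Cyp2e1, Cyp2b10, Cyp4b1, Cyp2s1, Cyp1a1 and Cyp1b1, the P450 reductase gene Por and the epoxide hydrolase gene Ephx1. They were chosen by name. Of the 9 genes, 7 had a probe set annotated to that symbol alone, with 11 probe sets among them, of 17097 genes measured in this way. Cyp2s1 and Por were not analysed here. Each gene is represented by its brightest probe set over all 35 arrays, and the other probe sets are given where they exist.

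RNA came from whole lung of adult male CD-1 mice, an outbred stock, with 5 mice in each of 7 groups and 1 array per mouse. The control group breathed air without styrene, and the exposed groups breathed styrene at 1, 5, 10, 20, 40 or 120 ppm. The labels name no genetic change, and all mice shared the supplier, housing, diet and RNA preparation. The sample titles and the protocol give 1 exposure of 6 h with lungs taken the next morning (1 day), whereas the series title and a sample characteristic give 5 days, so the length of exposure is not settled here. The titles call the mice of a group biological replicates.

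In mouse lung the P450 enzyme CYP2F2 is a product of club cells, the secretory cells of the small airways, and it is the enzyme best known for activating styrene there. CYP2E1 also oxidises styrene and is abundant in liver and present in fat. CYP1A1 and CYP1B1 are classic targets of the aryl hydrocarbon receptor, a ligand-activated transcription factor, and CYP2B10 is the classic target of the receptor CAR in liver.

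Over all 21 pairs of groups the epoxide hydrolase gene Ephx1 was called in 14 pairs and Cyp1b1 in 10, and against air both were called at 5 concentrations. The 14 pairs of Ephx1 were 5 to 120 ppm against air or 1 ppm, and the higher concentrations against 5 ppm. Of all genes 63.6% to 79.6% were called for 5 to 120 ppm against air or 1 ppm, and 27.2% for 10 against 5 ppm. By size among all genes the change of Ephx1 at 5 ppm stood at percentile 58.2. Ephx1 was lower than in air at 5, 10, 20, 40 and 120 ppm, and the lowest level was at 5 ppm. Cyp2f2 was not called in any comparison of groups. Cyp1b1 was higher than in air at 5, 10, 20, 40 and 120 ppm on its brightest probe set. Its other probe sets, which lay below the array medians, did not follow it. Cyp2b10 was higher at 20 and 120 ppm. Cyp1a1 and Cyp4b1 were lower at 5 ppm alone, and the change of Cyp4b1 was near the median change of all genes. Cyp2e1 was called in no comparison with air but varied widely between mice of the same group.

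The arrays fell into separate sets. The interquartile range of the log2 values of an array was at most 3.16 in air and at 1 ppm and at least 3.28 at 5 to 120 ppm, and the first principal component held 67.3% of the variance. The array medians lay between 4.35 and 4.56, and no 2 arrays were identical. Because this split follows concentration, an array-wide difference between the sets and an effect of styrene cannot be told apart. Over all genes the median log2 change against air was -0.04 at 1 ppm, -0.23 at 5 ppm, -0.14 at 10 ppm, -0.11 at 20 ppm, -0.13 at 40 ppm and -0.15 at 120 ppm. Scgb1a1, the club cell secretory protein gene, had a log2 value of 13.73 ± 0.0549 (SD, n = 5) in air, and Sftpc, which encodes a surfactant protein of alveolar type 2 cells, had 13.77 ± 0.0471 (SD, n = 5). Both lung markers were thus present in the tissue labelled as lung. In whole tissue, fewer cells of a type and less RNA per cell cannot be told apart.

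Promoter sequences show the stretch just upstream of 4 of the genes that differed between groups. They are the 250 bases before the RefSeq transcription start of each gene, 5′ to 3′ on the gene's own strand, from assembly GRCm38. All 7 measured genes had an entry. Both strands were searched for GCGTG, the core that the aryl hydrocarbon receptor recognises and that reads as CACGC on the other strand, for GGGCGG, the GC box, for TATAAA, the TATA box, and for TGACNNNGC, the antioxidant response core. None of these motifs is contained in another. In Cyp1a1, Cyp1b1 and Cyp2b10 capitals mark that core on either strand, and in Ephx1 capitals mark the TATA box.
Ephx1, chr1:181017570-181017819, minus strand: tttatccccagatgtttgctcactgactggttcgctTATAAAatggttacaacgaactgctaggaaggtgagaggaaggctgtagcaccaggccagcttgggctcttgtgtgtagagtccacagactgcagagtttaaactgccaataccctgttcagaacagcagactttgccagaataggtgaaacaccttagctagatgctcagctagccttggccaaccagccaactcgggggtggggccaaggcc
Cyp1a1, chr9:57697363-57697612, plus strand: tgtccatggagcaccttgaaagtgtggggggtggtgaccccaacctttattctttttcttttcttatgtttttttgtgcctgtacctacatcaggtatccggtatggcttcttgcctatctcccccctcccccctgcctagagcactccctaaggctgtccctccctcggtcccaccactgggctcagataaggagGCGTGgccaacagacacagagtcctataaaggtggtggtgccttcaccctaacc
Cyp1b1, chr17:79715062-79715311, minus strand: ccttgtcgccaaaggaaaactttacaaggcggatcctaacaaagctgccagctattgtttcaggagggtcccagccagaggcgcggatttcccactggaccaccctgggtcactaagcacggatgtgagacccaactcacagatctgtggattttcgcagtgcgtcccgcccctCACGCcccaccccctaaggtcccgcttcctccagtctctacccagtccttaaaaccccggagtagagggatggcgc
Cyp2b10, chr7:25897408-25897657, plus strand: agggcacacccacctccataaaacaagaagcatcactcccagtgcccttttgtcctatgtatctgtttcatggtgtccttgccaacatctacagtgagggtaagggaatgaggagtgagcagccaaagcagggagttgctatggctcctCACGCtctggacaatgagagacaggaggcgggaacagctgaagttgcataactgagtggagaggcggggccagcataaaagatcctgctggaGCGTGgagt

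GCGTG or its complement was in 3 of the 7 promoters, and in 28.2% of 27025 mouse promoters of the same length. Cyp1a1 held it 54 to 50 bases before the start, Cyp1b1 76 to 72 bases before it, and Cyp2b10 at 101 to 97 and at 9 to 5 bases before it. The GC box was in 2 of the 7, Cyp4b1 and Cyp1b1, against 32.9% of all promoters. TATAAA was in 3 of the 7, against 13.0% of all. It lay 30 to 25 bases before the start in Cyp1a1, 31 to 26 bases before it in Cyp2e1, and farther away, 214 to 209 bases before it, in Ephx1. The antioxidant response core was in 0 of the 7 and in 10.1% of all promoters. A match of these letters is a description of the sequence.

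The number of members called was read against the share of all genes called, where called means an adjusted p (limma, Benjamini-Hochberg) under 0.05. At 1 ppm 0 of 7 members were called, against 2.46% of all genes (0.965% higher, 1.49% lower), and none had an unadjusted p under 0.05. At 5 ppm 4 of 7 were called, 1 higher and 3 lower, against 77% of all genes (29.6% higher, 47.4% lower). At 10 ppm 2 of 7 were called, 1 higher and 1 lower, against 66.4% of all genes (29% higher, 37.4% lower). At 20 ppm 3 of 7 were called, 2 higher and 1 lower, against 63.6% of all genes (29.4% higher, 34.2% lower). At 40 ppm 2 of 7 were called, 1 higher and 1 lower, against 64.8% of all genes (28.6% higher, 36.2% lower). At 120 ppm 3 of 7 were called, 2 higher and 1 lower, against 68.9% of all genes (29.8% higher, 39.1% lower). At each of these concentrations from 5 ppm up, a smaller share of the members than of all genes was called. All these comparisons share the 5 air mice.

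**Figure D1:**
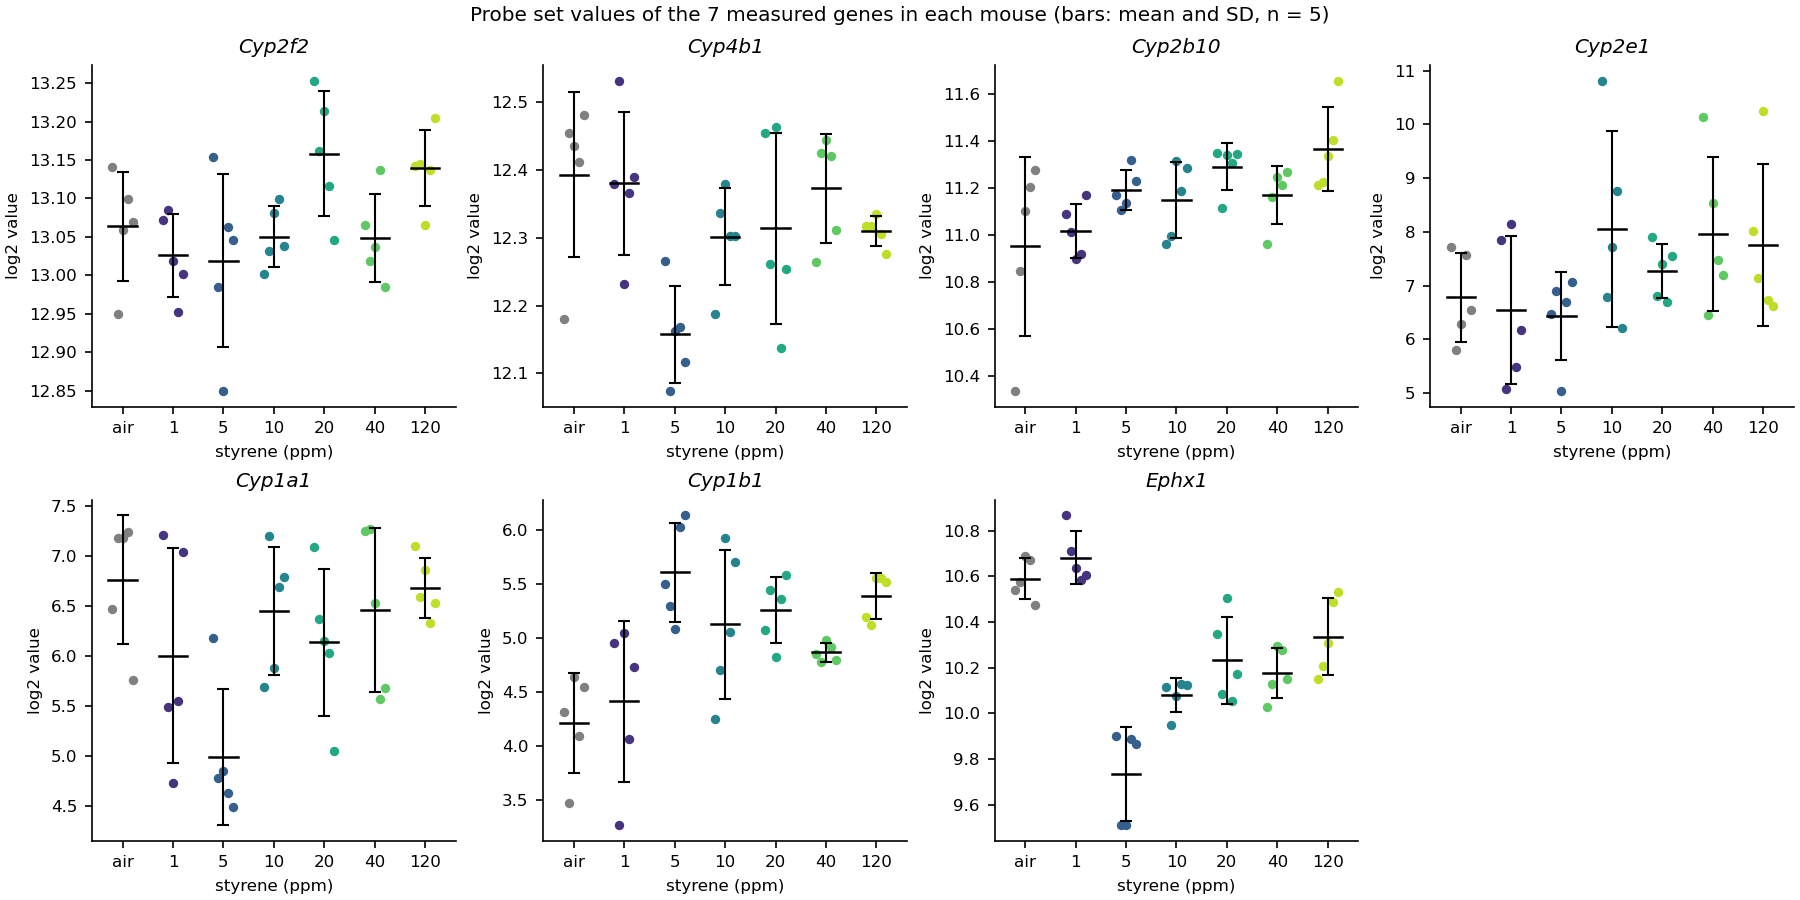
Log2 probe set value of each of the 7 genes (y axis, log2 units, own scale in each panel) in every mouse, by styrene concentration (x axis, ppm), with points for mice and bars for the mean and SD of 5 mice. Cyp2f2 stays between 12.85 and 13.25 in all 35 mice, Ephx1 is lowest at 5 ppm, and Cyp2e1 spreads from 5.03 to 10.81.

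Cyp2f2, the main styrene-oxidising P450 of club cells, varied little on its probe set. Its mean log2 value of 13.07 stood at percentile 99.9 of all genes' means, and whether the probe set could still show a change at that brightness was not tested. In air the log2 values were 13.14, 12.95, 13.06, 13.10 and 13.07. At 5 ppm they were 13.15, 12.98, 12.85, 13.06 and 13.05, and at 120 ppm 13.14, 13.15, 13.07, 13.14 and 13.21. The groups overlapped air at all 6 concentrations. The spread within groups (pooled SD 0.0703) was smaller than that of nearly all genes, at percentile 0.269 of 17097, where the median SD was 0.206. The change against air was -0.04 ± 0.0611 (SE) at 5 ppm, with a 95% interval from -0.17 to 0.08, and limma gave an adjusted p of 0.504. At 120 ppm it was 0.08 ± 0.0611, with an interval from -0.05 to 0.20 and an adjusted p of 0.271. The group means ran from 13.16 at 20 ppm down to 13.02 at 5 ppm. Of the 21 pairs of groups 0 were called by limma, and 2 had an unadjusted p under 0.05, 20 ppm against 1 ppm (0.13, adjusted p = 0.0559) and against 5 ppm (0.14, adjusted p = 0.0691). The 3 genes whose deviations from the group means followed Cyp2f2 most closely over 35 arrays were Wfdc2 (Pearson r = 0.76), Gprc5c (r = 0.75) and Clic6 (r = 0.73).

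Cyp4b1, a P450 abundant in lung that oxidises fatty acids and many foreign compounds, was lower at 5 ppm by a small amount. The air mice had 12.18, 12.46, 12.44, 12.41 and 12.48. The mice at 5 ppm had 12.27, 12.07, 12.16, 12.17 and 12.12. At 5 ppm 4 of the mice were below the lowest air mouse, mouse 1, and the other mouse lay above it, so the groups overlapped. Cyp4b1 fell by 0.24 ± 0.0716 (SE) on the log2 scale at 5 ppm, to 0.850 of the air level (adjusted p = 0.00387, limma). The median change of all genes at 5 ppm was -0.23, and relative to it Cyp4b1 changed by only -0.0097. By size among all genes its change stood at percentile 19.9. In a fit of the 5 ppm and air mice alone the same difference was not called (adjusted p = 0.0512, limma). At the other concentrations the changes lay between -0.09 and -0.01, and none was called. Of the 21 pairs of groups 3 were called, 5 ppm against air, 1 ppm and 40 ppm. In the order of group means, from air (12.39) through 1 ppm, 40 ppm, 20 ppm, 120 ppm and 10 ppm to 5 ppm (12.16), no neighbours were called. The genes that followed Cyp4b1 most closely within groups were Ubap2l (r = 0.71), Phf10 (r = 0.70) and Tbc1d8 (r = 0.70).

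Cyp2b10, the phenobarbital-inducible P450 of mouse liver, was higher at 20 and 120 ppm. In air the values were 10.33, 10.85, 11.10, 11.20 and 11.28, the widest spread of any group (SD 0.381). At 20 ppm they were 11.35, 11.12, 11.34, 11.30 and 11.34, and at 120 ppm 11.21, 11.22, 11.33, 11.40 and 11.66. At 120 ppm 3 of 5 mice lay above the highest air mouse and 2 within the air range. Air mice 1 to 4 lay below every mouse at 120 ppm. Cyp2b10 rose by 0.34 ± 0.120 (SE) on the log2 scale at 20 ppm, 1.26-fold (adjusted p = 0.0146, limma). Without air mouse 1 the change at 20 ppm was 0.18 and was not called (adjusted p = 0.104). It rose by 0.41 ± 0.120 at 120 ppm, 1.33-fold (adjusted p = 0.00297, limma), and was called when any of the 10 mice was left out, at 0.26 (adjusted p = 0.0211) without air mouse 1.

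The other probe sets of Cyp2b10 gave the same direction. At 120 ppm probe set 1422257_PM_s_at changed by 0.40 (adjusted p = 0.0117) and 1451787_PM_at by 0.61 (adjusted p = 0.000708), each in limma over all probe sets. At 20 ppm 1422257_PM_s_at changed by 0.32 and was not called (adjusted p = 0.0502, limma). There 1451787_PM_at changed by 0.56 (adjusted p = 0.00208, limma). The names of the brightest probe set, 1425645_PM_s_at, and of 1422257_PM_s_at end in s_at, which marks possible binding to several transcripts. The nearly identical transcripts of other Cyp2b genes may thus add to their values. Of the 21 pairs of groups 4 were called, 20 and 120 ppm each against air and 1 ppm, and 0 of the 10 pairs among 5 to 120 ppm. From the highest group mean, 11.37 at 120 ppm, to the lowest, 10.95 in air, no neighbours in the order were called. Within groups the genes closest to Cyp2b10 were Dctn5 (r = 0.86), Ankrd46 (r = 0.85) and Slc43a3 (r = 0.84).

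**Figure D2:**
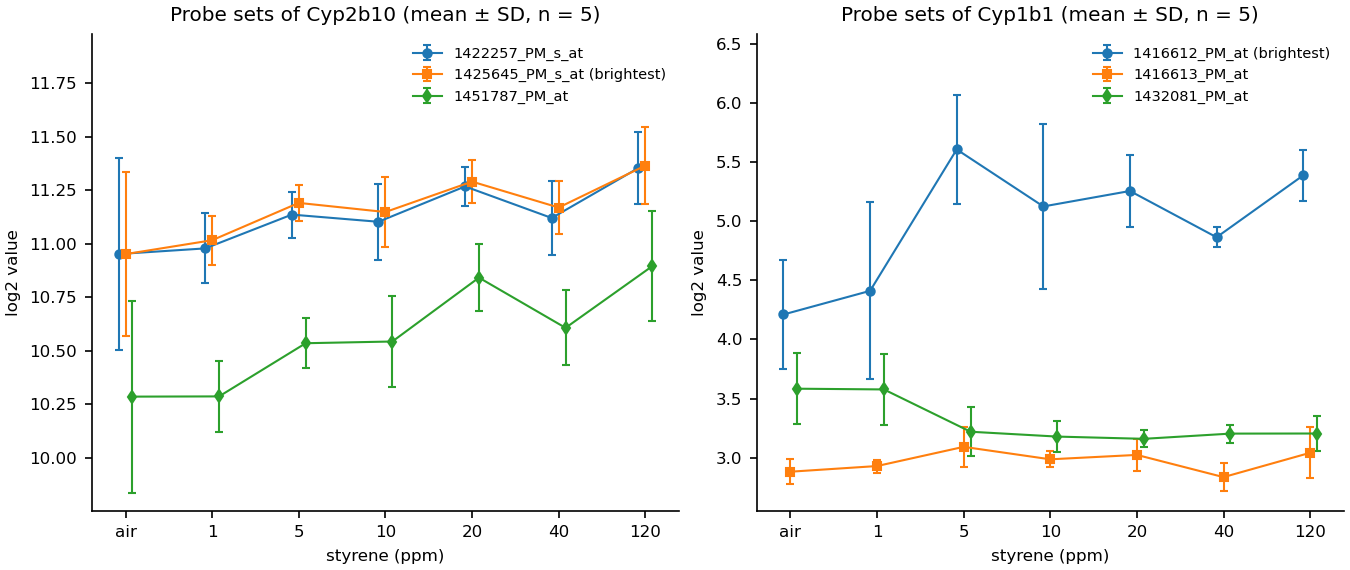
Mean log2 value with SD (y axis) of every probe set of Cyp2b10 (left) and Cyp1b1 (right) by styrene concentration (x axis, ppm), 5 mice per point. The Cyp2b10 probe sets run in parallel, whereas those of Cyp1b1 do not: the brightest is higher from 5 ppm up, and 1432081_PM_at is lower.

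Cyp2e1, a P450 that oxidises ethanol, styrene and other small molecules, differed more between mice than between groups. In air the values were 7.72, 5.81, 6.29, 7.56 and 6.55. At 10 ppm they were 10.81, 6.78, 7.71, 8.76 and 6.20, and at 120 ppm 8.02, 7.13, 10.26, 6.73 and 6.62. The 3 highest values of the series were mouse 1 at 10 ppm, mouse 3 at 120 ppm and mouse 1 at 40 ppm (10.14), while the remaining mice of these groups lay between 6.20 and 8.76. All 6 exposed groups overlapped air. The pooled SD within groups was 1.26, at percentile 99.8 of all genes. The change against air was 1.27 ± 0.743 (SE) at 10 ppm, with a 95% interval from -0.24 to 2.78, and limma gave an adjusted p of 0.131. At 120 ppm it was 0.97 ± 0.743 with an interval from -0.55 to 2.48 (adjusted p = 0.244, limma). Of the 21 pairs of groups 0 were called by limma, and 2 had an unadjusted p under 0.05, 10 and 40 ppm against 5 ppm (1.62 and 1.53).

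Over all 35 mice the trend of Cyp2e1 on log2(ppm + 1) was 0.20 ± 0.0901 (SE) per unit and was called (adjusted p = 0.0420, limma). In this trend 3 of 7 members were called, all higher, against 72.6% of all genes (30.9% higher, 41.8% lower). The call of Cyp2e1 was lost when any of 10 of the 35 mice was left out, down to 0.15 (adjusted p = 0.120) without mouse 3 at 120 ppm. The 10 were air mice 2, 3 and 5, mice 2, 4 and 5 at 1 ppm, mice 1 and 3 at 40 ppm and mice 1 and 3 at 120 ppm. The other members called were Cyp1b1 with 0.14 ± 0.0419 (adjusted p = 0.00348) and Cyp2b10 with 0.05 ± 0.0144 (adjusted p = 0.00138). Ephx1, whose level was not ordered by concentration, had a trend of -0.05 ± 0.0233 (adjusted p = 0.0705, limma). These trends from air include the difference between the array sets, and on plain ppm no member was called. Over 5 to 120 ppm alone the slope was -0.05 for Cyp1b1 (adjusted p = 0.632), 0.04 for Cyp2b10 (adjusted p = 0.252) and 0.22 for Cyp2e1 (adjusted p = 0.422, limma).

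The level of Cyp2e1 in a mouse went with genes of fat cells. Of 10 listed adipocyte markers 7 were measured: Adipoq, Retn, Lep, Thrsp, Ucp1, Cidea and Car3. Adipoq, which encodes the fat hormone adiponectin, ranged from 3.19 to 11.27 over the 35 arrays. The mean of the 7 markers lay between 4.73 and 6.88 in air, 4.62 and 6.31 at 1 ppm, 4.34 and 6.12 at 5 ppm, 4.24 and 8.45 at 10 ppm, 4.77 and 6.16 at 20 ppm, 4.90 and 6.95 at 40 ppm, and 4.43 and 9.63 at 120 ppm. These ranges overlap, and 0 of the 7 markers was called against air at any concentration by limma, with 1 marker at an unadjusted p under 0.05 at 10 ppm and 0 at the other concentrations.

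Across the 10 air and 1 ppm arrays Cyp2e1 and the marker mean had a Pearson r of 0.82 (permutation p = 0.00383, adjusted over 16 tests 0.0306) and a Spearman rho of 0.77 (permutation p = 0.0123, adjusted 0.0657). Across the 25 arrays at 5 to 120 ppm r was 0.87 (permutation p = 1e-05, the smallest that 100000 permutations can give, adjusted 0.00016) and rho 0.82 (permutation p = 2e-05, adjusted 0.00032). Without the 2 arrays farthest from the median marker mean, r was 0.78 in each set. The part of fat or liver cells in the level of Cyp2e1 was not tested. The mean of 9 measured hepatocyte markers of 10 listed lay between 3.70 and 5.72 in air, 3.67 and 8.33 at 1 ppm, 3.42 and 4.89 at 5 ppm, 3.44 and 4.85 at 10 ppm, 3.47 and 7.30 at 20 ppm, 3.51 and 8.74 at 40 ppm, and 3.43 and 4.71 at 120 ppm, and 0 of the 9 was called against air by limma (0 at an unadjusted p under 0.05). For these r was 0.72 in air and 1 ppm (permutation p = 0.0174, adjusted 0.0677) and 0.46 at 5 to 120 ppm (permutation p = 0.0212, adjusted 0.0677), with rho of 0.61 (permutation p = 0.0657, adjusted 0.21) and 0.53 (permutation p = 0.00682, adjusted 0.0546). Without the 2 farthest arrays these were 0.42 and 0.29. Fabp4 (r = 0.87), Ifi27l2a (r = 0.87) and Adipoq (r = 0.86) were the genes that followed Cyp2e1 most closely within groups, and Fabp4 and Adipoq are genes of fat cells.

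With the adipocyte marker mean as a covariate, a fit added after the data had been seen, Cyp2e1 was higher than in air at 40 ppm by 0.98 ± 0.353 (SE; adjusted p = 0.0158, limma). At 5 ppm the value was -0.22 (adjusted p = 0.562) and at 10 ppm 0.66 (adjusted p = 0.105). At 20 ppm it was 0.68 (adjusted p = 0.0945) and at 120 ppm 0.29 (adjusted p = 0.464). The trend from air to 120 ppm with this covariate was 0.11 (adjusted p = 0.0476), beside 0.20 without it. The moderated F test over all 7 groups was called with the covariate (adjusted p = 0.0251) and not called without it (adjusted p = 0.177). Mouse 1 at 40 ppm had a hepatocyte marker mean of 8.74, the highest of the 35 arrays. Without this mouse the fit with the covariate gave 0.67 at 40 ppm (adjusted p = 0.0856) and a trend of 0.090 (adjusted p = 0.0631), and neither was called. The F test with the covariate was not repeated without this mouse. The part of liver transcripts in these values was not tested.

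**Figure D3:**
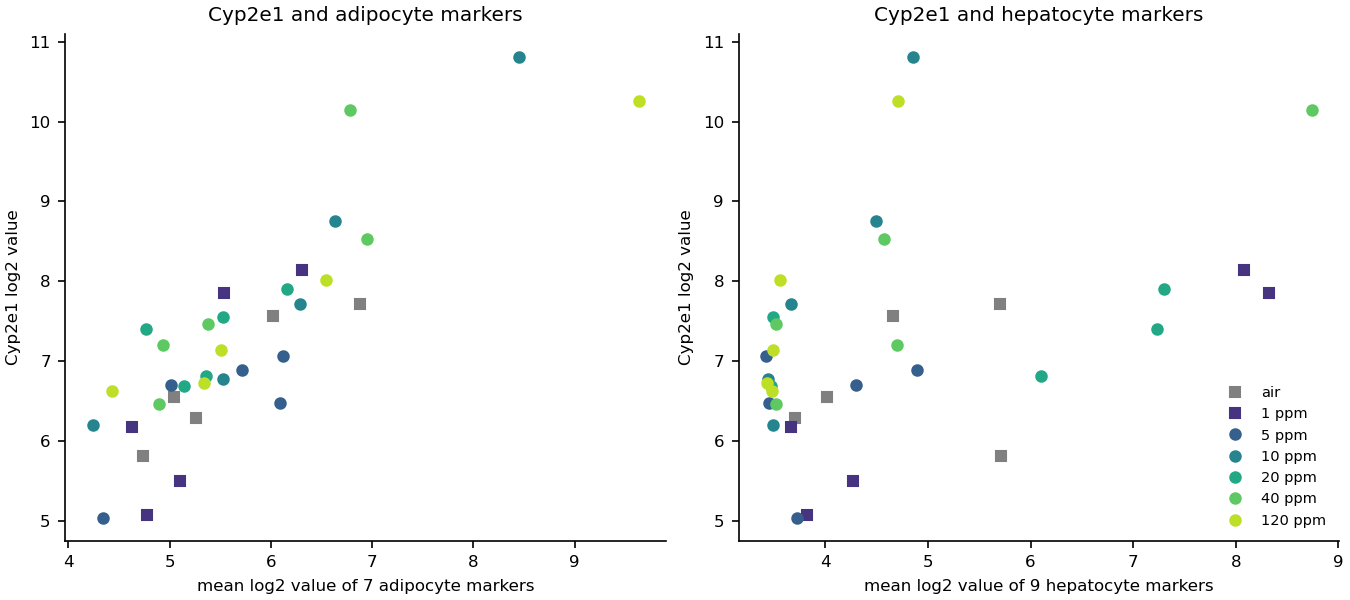
Cyp2e1 log2 value (y axis) against the mean log2 value of 7 adipocyte markers (left) and 9 hepatocyte markers (right) in each of 35 mice, with squares for air and 1 ppm and circles for 5 to 120 ppm. The mouse at 120 ppm with a Cyp2e1 value of 10.26 has the highest adipocyte marker mean, 9.63.

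Cyp1a1, the P450 most strongly induced through the aryl hydrocarbon receptor, was lower at 5 ppm than in air and than at the higher concentrations. In air the values were 6.47, 7.18, 7.18, 7.24 and 5.76. At 5 ppm they were 6.18, 4.78, 4.85, 4.63 and 4.49. Mouse 1 at 5 ppm stood within the air range, and the other 4 mice lay below every air mouse. At 10 ppm the values were 5.69, 7.20, 5.88, 6.69 and 6.80, and at 120 ppm 7.10, 6.59, 6.86, 6.33 and 6.53. Cyp1a1 fell by 1.78 ± 0.434 (SE) on the log2 scale at 5 ppm (adjusted p = 0.000461, limma). The 4 low mice at 5 ppm, between 4.49 and 4.85, lay near the array medians of that group, 4.45 to 4.56. Whether the probe set was above background there was not tested, so no fold is given. At 1 ppm the values were 7.21, 5.49, 4.73, 5.55 and 7.04, which spread across almost the whole range, and the change of -0.76 ± 0.434 was not called (adjusted p = 0.422, limma).

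No other concentration gave a call for Cyp1a1 against air, and at 120 ppm the change was -0.08 ± 0.434 with a 95% interval from -0.97 to 0.80. Of its 21 pairs of groups 6 were called, and all 6 were comparisons with 5 ppm. In each of these pairs between 19% and 79.6% of all genes were called, whereas in the 6 pairs among 10 to 120 ppm at most 3 genes were. The order of group means ran from air (6.77) through 120, 40, 10, 20 and 1 ppm (6.00) to 5 ppm (4.98), and only the last neighbours, 1 and 5 ppm, differed (adjusted p = 0.0323, limma). In the moderated F test of any difference among 5 to 120 ppm, 2 of 7 members were called, Cyp1a1 (adjusted p = 0.0150) and Ephx1 (adjusted p = 0.000141), against 31.3% of all genes. The call of Cyp1a1 in that test was lost without mouse 2, 4 or 5 at 5 ppm (adjusted p up to 0.0654). Within groups, Ube2g2 (r = 0.65), Plxna2 (r = 0.61) and Herpud1 (r = 0.60) followed Cyp1a1 most closely.

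Cyp1b1, a P450 of mesenchymal and vascular cells that oxidises oestrogens and polycyclic hydrocarbons, was higher from 5 ppm up on its brightest probe set, 1416612_PM_at. In air the values were 4.31, 3.47, 4.64, 4.09 and 4.54. At 5 ppm they were 5.50, 5.29, 5.08, 6.03 and 6.14, and at 120 ppm 5.19, 5.11, 5.55, 5.55 and 5.52. All mice at 5, 20, 40 and 120 ppm lay above the highest air mouse, while 10 ppm (4.25, 4.70, 5.92, 5.05 and 5.70) and 1 ppm (4.95, 3.26, 5.05, 4.06 and 4.73) overlapped air. The values of 4.85, 4.77, 4.98, 4.92 and 4.80 at 40 ppm were the most alike of any group (SD 0.0857). The gene rose by 1.40 ± 0.286 (SE) on the log2 scale at 5 ppm (adjusted p = 5.65e-05, limma). It rose by 0.91 at 10 ppm (adjusted p = 0.00588), by 1.04 at 20 ppm (adjusted p = 0.00204) and by 1.18 at 120 ppm (adjusted p = 0.000542). The air mean of 4.21 lay below the array medians of 4.35 to 4.56, and whether the probe set was above background there was not tested, so no fold is given. At 40 ppm the rise of 0.65 (adjusted p = 0.0456) was lost when air mouse 1, 2 or 4 or any mouse at 40 ppm was left out, with an adjusted p of up to 0.162 without air mouse 2, and it was not called when 1 ppm took the place of air (0.45, adjusted p = 0.156). With the interquartile range as a covariate the direction turned at 10 ppm (-0.012) and at 40 ppm (-0.27, adjusted p = 0.733), and with the array axis or the interquartile range no call of Cyp1b1 against air was kept.

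The other Cyp1b1 probe sets did not follow the brightest one, and both were dim. Group means ran from 2.84 to 3.09 for 1416613_PM_at and from 3.16 to 3.58 for 1432081_PM_at, below the array medians of 4.35 to 4.56. Whether these probe sets were above background was not tested. At 120 ppm 1416613_PM_at changed by 0.16 (adjusted p = 0.128) and 1432081_PM_at fell by 0.38 (adjusted p = 0.00953, limma over all probe sets). At 5 ppm they gave 0.21 (adjusted p = 0.0399) and -0.36 (adjusted p = 0.0103). The mean of the 3 probe sets rose by 0.41 at 5 ppm (adjusted p = 0.00139), by 0.25 at 20 ppm (adjusted p = 0.0479) and by 0.32 at 120 ppm (adjusted p = 0.0128), and was not called at 10 ppm (0.20, adjusted p = 0.107) or 40 ppm (0.08, adjusted p = 0.560). Which probe set follows the transcript was not tested. Of the 21 pairs of groups 10 were called for the brightest probe set, of which 1 (40 against 5 ppm) was among the 10 pairs at 5 to 120 ppm. From 5 ppm (5.61) through 120, 20, 10, 40 and 1 ppm to air (4.21), no neighbours in the order of means were called. Pdp1 (r = 0.69), Retreg1 (r = 0.66) and Wdr47 (r = 0.64) were the closest genes within groups.

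Ephx1 encodes microsomal epoxide hydrolase, the enzyme that detoxifies styrene oxide by adding water, and it was lower at every concentration from 5 ppm up. In air the values were 10.54, 10.57, 10.69, 10.67 and 10.48, and at 1 ppm 10.87, 10.71, 10.64, 10.59 and 10.60. At 5 ppm they were 9.90, 9.51, 9.51, 9.89 and 9.87. The mice at 5 ppm were all lower than every mouse of the other 6 groups.

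At 10 ppm the values were 10.12, 9.95, 10.08, 10.13 and 10.13, and at 20 ppm 10.35, 10.08, 10.50, 10.05 and 10.17. At 40 ppm they were 10.03, 10.13, 10.29, 10.28 and 10.15, and at 120 ppm 10.15, 10.21, 10.31, 10.49 and 10.53. The groups at 5, 10 and 40 ppm did not overlap air, whereas mouse 3 at 20 ppm and mice 4 and 5 at 120 ppm reached the air range.

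Ephx1 fell by 0.85 ± 0.0960 (SE) on the log2 scale at 5 ppm, to 0.554 of the air level (adjusted p = 1.29e-09, limma). It fell by 0.51 at 10 ppm (adjusted p = 2.19e-05), by 0.36 at 20 ppm (adjusted p = 0.00167) and by 0.41 at 40 ppm (adjusted p = 0.000350), each ± 0.0960. At 120 ppm it fell by 0.25 ± 0.0960, to 0.839 of the air level (adjusted p = 0.0201), and this call was lost without mouse 1 (adjusted p = 0.0696) or mouse 2 (adjusted p = 0.0561) of that group. At 1 ppm the change was 0.09 ± 0.0960 with a 95% interval from -0.10 to 0.29 (adjusted p = 0.730). Relative to the median change of all genes, the changes of Ephx1 were -0.63 at 5 ppm, -0.37 at 10 ppm, -0.25 at 20 ppm, -0.29 at 40 ppm and -0.11 at 120 ppm. By size among all genes the change at 5 ppm stood at percentile 58.2 and that at 120 ppm at percentile 28.4.

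**Figure D4:**
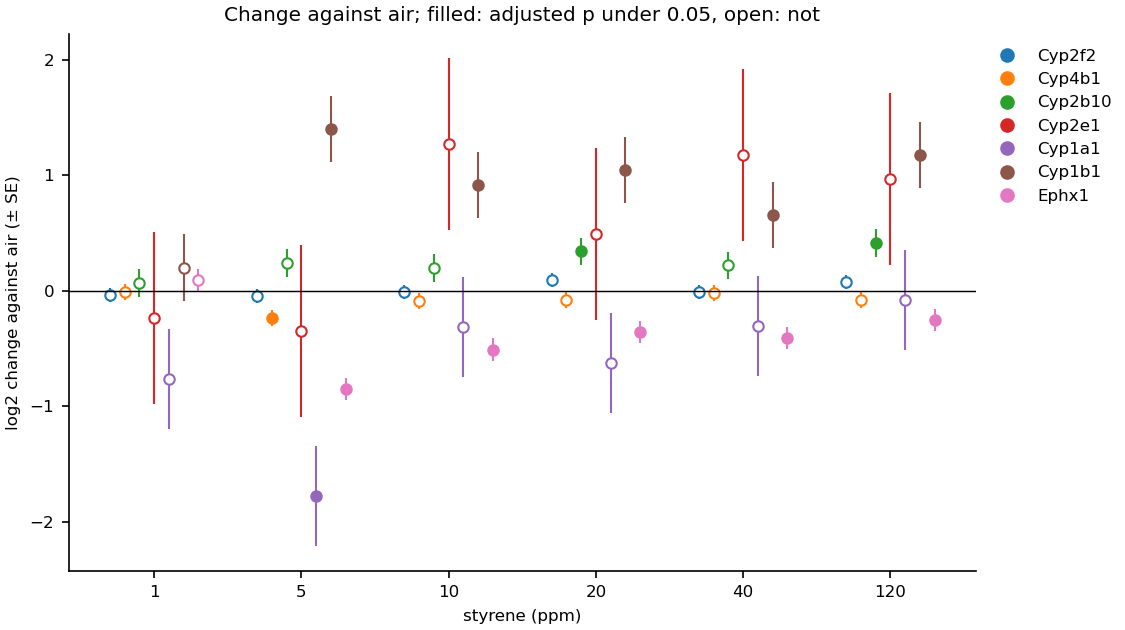
Log2 change against air with its SE (y axis) for the 7 genes at each styrene concentration (x axis, ppm), filled where the adjusted p from limma was under 0.05. Ephx1 lies below 0 from 5 ppm up, from -0.85 at 5 ppm to -0.25 at 120 ppm, and Cyp1b1 lies above 0 by 0.65 to 1.40.

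Above 5 ppm Ephx1 was again higher. The comparison of 10 with 5 ppm, which was added after the data had been seen, called 2 of 7 members, both higher, against 27.2% of all genes (17.4% higher, 9.86% lower): Ephx1 by 0.34 ± 0.0960 (adjusted p = 0.00806, limma) and Cyp1a1 by 1.47 ± 0.434 (adjusted p = 0.0116, limma). Of the 10 pairs of groups among 5 to 120 ppm, 4 were called for Ephx1, and each was a comparison with 5 ppm. Of all genes 27.2% were called for 10 against 5 ppm, 40.3% for 20, 33.2% for 40 and 19% for 120 ppm against 5 ppm, and at most 0.0175% in the other 6 pairs. Its trend over 5 to 120 ppm was 0.12 ± 0.0242 per unit of log2(ppm + 1) and was not called (adjusted p = 0.0590, limma). In that trend 0 of 7 members were called, against 0.00585% of all genes, and 3 members had an unadjusted p under 0.05 (Cyp4b1, Cyp1a1 and Ephx1). In the order of means, 1 ppm (10.68) and air (10.59) did not differ, and air and 120 ppm did. The groups at 120, 20, 40 and 10 ppm (10.34, 10.23, 10.18 and 10.08) did not differ from their neighbours, and 10 and 5 ppm (9.74) differed. Of all 21 pairs 14 were called, the most of any member. Those beyond the 4 set 5 to 120 ppm against air or 1 ppm, where 63.6% to 79.6% of all genes were called. An unadjusted p under 0.05 was found in 15 (limma). The pair not called among these 15 was 120 against 10 ppm, with means of 10.34 and 10.08. In the moderated F test over all 7 groups, 4 of 7 members were called (Ephx1, Cyp1b1, Cyp1a1 and Cyp2b10), against 82.4% of all genes. Elapor1 (r = 0.76), Ubxn10 (r = 0.73) and Bnipl (r = 0.73) followed Ephx1 most closely within groups.

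With 1 ppm in place of air, the 5 calls of Ephx1 held, from -0.95 at 5 ppm to -0.35 at 120 ppm. An array-wide measure moved with them. The array axis, the main direction of the deviations of arrays from their group means, was between 0.66 and 1.78 in air and at 1 ppm, between -1.51 and -1.07 at 5 ppm, and between -0.95 and 0.61 at 10 to 120 ppm. With this axis as a covariate the change of Ephx1 was -0.38 at 5 ppm (adjusted p = 0.283) and 0.08 at 120 ppm (adjusted p = 0.793), and no call against air was kept. With the interquartile range as a covariate it was -0.48 at 5 ppm (adjusted p = 0.0454) and 0.07 at 120 ppm (adjusted p = 0.817). Since these covariates differ between the groups, such fits can also take away part of a true difference. Of the 25 calls of the 7 members over all comparisons, 3 were kept with the axis and 7 with the interquartile range.

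The difference of the log2 values of Ephx1 and Cyp2f2 on the same array was added after the values of both genes had been seen. Since Cyp2f2 varied little and is near the top of the range, this difference largely restates the change of Ephx1, and its p is no independent evidence. The spread of an array's values differed between the array sets, and the difference is not free of that. It was -2.47 ± 0.115 (SD, n = 5) in air and -3.28 ± 0.126 (SD, n = 5) at 5 ppm. The change was -0.81 at 5 ppm, -0.50 at 10 ppm, -0.45 at 20 ppm, -0.40 at 40 ppm and -0.33 at 120 ppm, and in each case all 5 exposed mice lay below all 5 air mice. The exact two-sided permutation p was 0.00794 at each, the smallest that 252 arrangements allow, and 0.00952 after adjustment over 6 concentrations. At 1 ppm the change was 0.13 (exact permutation p = 0.0873). A second difference, Ephx1 minus the mean of Cyp2f2, Cyp4b1 and Cyp2b10, was added in the same way and is no independent evidence either. Its change was -0.84 at 5 ppm and -0.39 at 120 ppm. The exact permutation p was 0.00794 at 5, 10, 20 and 40 ppm, 0.0159 at 120 ppm and 0.341 at 1 ppm.

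Cell type markers were measured beside these genes. Of 12 club cell markers 5 were higher and 3 lower than in air at 5 ppm, and 4 were higher and 2 lower at 120 ppm. Of all genes 29.6% were higher and 47.4% lower at 5 ppm, and 29.8% higher and 39.1% lower at 120 ppm. Their mean lay between 9.41 and 10.70 in air, 10.41 and 11.00 at 5 ppm and 10.57 and 10.95 at 120 ppm. Of 10 measured ciliated cell markers 8 were higher and 2 lower at 5 ppm and at 120 ppm, and their mean lay between 5.72 and 6.16 in air, 6.96 and 7.75 at 5 ppm and 6.79 and 7.31 at 120 ppm. Of 9 alveolar macrophage markers 4 were higher and 2 lower at 5 ppm, with a mean between 7.81 and 8.73 in air and 8.71 and 9.14 at 5 ppm. Of 12 endothelial markers 6 were higher and 5 lower, and of 12 fibroblast markers 6 were higher and 5 lower, both at 5 ppm. Within the 2 array sets, no correlation of Cyp2f2, Cyp4b1, Cyp2b10 or Ephx1 with the club cell mean, of Cyp1a1 with the endothelial mean or of Cyp1b1 with the fibroblast mean passed after adjustment over 16 tests. The largest, Cyp2f2 with club cell markers in air and 1 ppm, had r = 0.74 (n = 10, permutation p = 0.0154, adjusted 0.0677) and 0.30 without the 2 farthest arrays. The part of cell types in the differences was not tested.

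The aryl hydrocarbon receptor pathway, to which Cyp1a1 and Cyp1b1 belong as targets, was described through 8 measured genes of 10 listed. At 120 ppm 5 of the 8 were higher than in air and 1 was lower, with a median change of 0.83 beside -0.15 for all genes, of which 29.8% were higher and 39.1% lower. Ugt1a6a, a glucuronosyltransferase, rose by 1.74 ± 0.117 (SE; adjusted p = 5.27e-14, limma). Nqo1, a quinone reductase, rose by 1.49 and Ahr, the receptor itself, by 1.17. Tiparp, a feedback inhibitor of the receptor, rose by 1.13. Cyp1a2 fell by 0.85 (adjusted p = 0.00642, limma). Ahrr, the receptor's repressor, changed by -0.22 (adjusted p = 0.203) and Aldh3a1 by -0.37 (adjusted p = 0.366). Cyp1a1 itself was not called at 120 ppm. At 5 ppm, where it fell, 5 of the 8 were higher and 2 lower, beside 29.6% and 47.4% of all genes. Tiparp rose there by 1.76 and Ahr was also higher (adjusted p = 3.09e-07, limma), while Aldh3a1, an aldehyde dehydrogenase, fell by 1.26 (adjusted p = 0.00288, limma).

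Genes that act after styrene oxide has formed were described beside Ephx1. Of 19 listed genes of oxide and glycol clearance 16 were measured, and at 120 ppm 7 were higher and 5 lower, beside 29.8% and 39.1% of all genes, with a median of 0.54 beside -0.15 for all genes. Mgst3, a microsomal glutathione transferase, fell by 1.32 ± 0.124 (SE), and Mgst1, of the same kind, rose by 1.17 ± 0.119. Aldh3a2, which oxidises fatty aldehydes, rose by 1.59 ± 0.183. The glutathione transferases Gsta4 and Gstm1 rose by 1.60 ± 0.155 and 0.63 ± 0.0870 (SE). Gstp1 fell by 0.52 ± 0.121 and Aldh2, an aldehyde dehydrogenase, by 0.47 ± 0.0786. Ephx2, the soluble epoxide hydrolase gene, changed by 0.85 ± 0.585 and was not called (adjusted p = 0.192, limma).

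Among 42 measured of 48 other listed P450 genes 7 were higher and 16 lower at 120 ppm, beside 29.8% and 39.1% of all genes, with a median of -0.20 beside -0.15 for all genes. Cyp39a1, a hydroxylase of cholesterol metabolites, rose by 2.52 ± 0.253 (SE), Cyp2j6 by 1.77 ± 0.169, Cyp4v3, a fatty acid hydroxylase, by 1.48 ± 0.136 and Cyp2j9 by 1.03 ± 0.142. Of 16 measured genes of haem synthesis and electron supply, which P450 enzymes depend on, 8 were higher and 6 lower at 120 ppm, set against the same shares. Pgrmc1, a haem-binding partner of P450 enzymes, rose by 1.89 and Alas2, the erythroid form of the first enzyme of haem synthesis, fell by 1.46. Cyb5a, a cytochrome that passes electrons to P450 enzymes, rose by 1.18, and Cyb5b, of the same family, by 1.30. Alas1, the form of the first enzyme of haem synthesis found in most tissues, rose by 0.49. The later genes of haem synthesis Ppox (-0.78), Alad (-0.76), Urod (-0.57) and Fech (-0.90) were lower. Cpox was higher (0.42), and Uros was not called (-0.03). Of 9 measured nuclear receptors of drug metabolism 2 were higher and 4 lower, again beside 29.8% and 39.1% of all genes. Nr3c1, the glucocorticoid receptor, rose by 2.18, and Rxra, a partner of CAR and other receptors, fell by 1.15. Rxrb, of the same family, was lower too (adjusted p = 6.73e-14, limma). Nr1h3, a sterol receptor, fell by 1.31. Nr1i3, which encodes CAR, changed by -0.18 (adjusted p = 0.125, limma), in the group where Cyp2b10 rose.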

How the data were processed

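Expression was measured on Affymetrix arrays in 35 whole lungs, 5 per group. The authors deposited 1 log2 value per probe set and array. RMA (background correction, normalization across arrays, summary over probes) and Partek are named in the submitters' processing notes, without versions. Arrays have no read depth, and their number limits the precision. Of 45037 probe sets, 28898 had exactly 1 gene symbol in the platform annotation, 551 had several and 15588 had none. The brightest such probe set stood for each of 17097 genes, with no filter on dim genes.

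Using limma 3.58.1 (R 4.3.3, lmFit and eBayes), a mean was estimated per group, all 7 groups together, with Benjamini-Hochberg adjustment over all genes and a threshold of 0.05, two-sided. Pairs of groups were adjusted within each pair over all genes. Trends on log2(ppm + 1) and moderated F tests were fitted likewise. Replicates are separate mice, whose spread sets the p-values. Permutation tests used Python 3.11.15 and scipy 1.17.1. The scripts were tested on simulated data. Members were described whatever they did. The genes named beside a member were the 3 with the highest Pearson r to its deviations from the group means, among genes with a mean at or above the median gene mean. For each pathway list, up to 4 called genes with the smallest adjusted p could be named. Other genes of these lists were named after their values were seen. The members and lists were chosen with earlier results of these data known. Mouse numbers recur in all groups and were not taken to pair mice. Alternatives covered the probe set summary, normalization, dim genes, the samples fitted, array weights, the variance prior, array-wide covariates, the control group, the threshold, the trend scale and each mouse left out. The comparison of 10 with 5 ppm, the differences of Ephx1 from other members and the adipocyte covariate were chosen after seeing the data.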

Additional observations from a re-analysis of the deposited data

Results flagged for a closer look

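Of 77 groups of 5 mice over the 11 probe sets, 6 had a highest or lowest mouse far from the next by Dixon's criterion. Chance gives about 1 in 20 such groups. For Cyp1a1 at 5 ppm, mouse 1 had 6.18 and the next mouse 4.85. For Cyp4b1 in air, mouse 1 had 12.18 and the next mouse 12.41. For Ephx1 at 10 ppm, mouse 2 had 9.95 and the next mouse 10.08. For Cyp2b10, mouse 2 at 20 ppm was low on the brightest probe set (11.12, next 11.30) and on 1451787_PM_at (10.57, next 10.87). On 1422257_PM_s_at, mouse 1 at 40 ppm had 10.82 and the next mouse 11.14.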

How the results depend on the processing

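The members called against air held at 1 ppm under every setting (0), but not under array-wide covariates at 5, 10, 20, 40 and 120 ppm. Fitted beside the array axis 0, 1, 0, 1 and 1 members were called, and beside the interquartile range 1, 0, 1, 0 and 0. At 10 and 40 ppm the 2 members called without a covariate, Ephx1 and Cyp1b1, were not called beside the axis. The 1 member called there was therefore another one, so these counts are not of calls that were kept. Under the axis 0 members were called for 10 against 5 ppm, 0 in the F test among 5 to 120 ppm and 2 in the F test of 7 groups. Under the interquartile range 2 were called in the F test of 7 groups and 1 in the trend from air to 120 ppm. With probe sets averaged per gene 1 was called at 10 ppm and 1 at 40 ppm. At 40 ppm 1 was called also with 1 ppm in place of air, an adjusted p under 0.01, every probe set tested alone, array median centring, array weights or quantile normalization. At an adjusted p under 0.01, 1 was called for 10 against 5 ppm and 1 among 5 to 120 ppm. The trend over 5 to 120 ppm called 1 with array weights, 1 without dim genes and 2 on the rank of concentration, and on plain ppm the trend from air called 0.

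Leaving out each mouse gave 0 members at 1 ppm, 4 to 5 at 5 ppm, 2 to 3 at 10, 20 and 120 ppm, 1 to 3 at 40 ppm and 2 to 3 for 10 against 5 ppm. It gave 1 to 2 in the F test among 5 to 120 ppm, 3 to 5 in that of 7 groups, 0 to 1 in the trend over 5 to 120 ppm and 2 to 4 in the trend from air. Ephx1 minus Cyp2f2 ran from 0.094 to 0.16 at 1 ppm, -0.84 to -0.76 at 5 ppm, -0.53 to -0.47 at 10 ppm, -0.51 to -0.41 at 20 ppm, -0.43 to -0.36 at 40 ppm and -0.37 to -0.28 at 120 ppm. Of 455 values of called results, 429 kept direction and call and 26 lost the call. Cyp2b10 lost its F call over 7 groups without air mouse 2 (adjusted p = 0.0585, limma) or 120 ppm mouse 5 (adjusted p = 0.0656). Cyp2e1 at 10 ppm ran from 0.58 without mouse 1 of that group (adjusted p = 0.479) to 1.73 without its mouse 5, where it was called (adjusted p = 0.0471, limma), and at 120 ppm down to 0.34 without mouse 3 (adjusted p = 0.683). Small changes crossed 0: Cyp1a1 at 120 ppm (-0.34 to 0.03), Cyp2b10 at 1 ppm (-0.089 to 0.15) and for 10 against 5 ppm (-0.084 to 0.0041), Cyp2e1 at 1 ppm (-0.64 to 0.13) and 5 ppm (-0.59 to 0.00015). So did Cyp2f2 for 10 against 5 ppm (-0.011 to 0.065), at 10 ppm (-0.042 to 0.0060) and 40 ppm (-0.043 to 0.0043), and Cyp4b1 at 1 ppm (-0.066 to 0.024) and 40 ppm (-0.073 to 0.0072).

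In all 66 values changed sign, 2 of them with an adjusted p under 0.05, both the trend of Ephx1 from air to 120 ppm: 0.042 with the axis (adjusted p = 0.0224) and 0.065 with the interquartile range (adjusted p = 0.0270). The axis also turned Ephx1 at 120 ppm (0.077), Cyp1b1 in the trend over 5 to 120 ppm (0.012), Cyp2b10 for 10 against 5 ppm (0.056) and at 5 ppm (-0.045), and Cyp2e1 at 5 ppm (3.55). For Cyp2f2 it gave -0.0078 for 10 against 5 ppm, 0.067 at 5 ppm, 0.060 at 10 ppm and 0.049 at 40 ppm, and for Cyp4b1 0.0065 at 40 ppm and 0.016 in the trend from air. The interquartile range turned Ephx1 at 1 ppm (-0.069) and 120 ppm (0.066), Cyp1b1 at 10 ppm (-0.012) and 40 ppm (-0.27), Cyp2e1 at 5 ppm (0.30), and Cyp1a1 at 10, 40 and 120 ppm (0.078, 0.088 and 0.33). For Cyp2f2 it gave -0.0085 for 10 against 5 ppm and 0.17, 0.16 and 0.16 at 5, 10 and 40 ppm, and for Cyp4b1 0.034, 0.040, 0.11 and 0.049 at 10, 20, 40 and 120 ppm and 0.021 in the trend from air. With 1 ppm in place of air Cyp1a1 was 0.45, 0.13, 0.46 and 0.68 at 10, 20, 40 and 120 ppm, and Cyp2f2 0.024 at 10 ppm and 0.023 at 40 ppm. Quantile normalization gave Cyp2f2 0.0063, 0.065 and 0.045 at 5, 10 and 40 ppm, and r of -0.055 for Cyp1a1 with endothelial markers (air and 1 ppm) and -0.012 for Cyp4b1 with club cell markers (5 to 120 ppm). The mean of probe sets gave r of -0.038 for Cyp1a1 with endothelial markers (5 to 120 ppm). Median centring gave Cyp4b1 0.013 at 1 ppm, array weights gave Cyp2b10 -0.024 at 1 ppm, and the adipocyte covariate gave Cyp2e1 0.066 at 1 ppm. On plain ppm the trends were 2.42e-04 for Cyp1b1 over 5 to 120 ppm, and 1.41e-05 for Cyp4b1 and 8.26e-05 for Ephx1 from air. The cause was not tested for any of these.

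The mouse numbers were not taken to pair mice, since not every pair's correlation was above 0.1: deviations of same-numbered mice had a mean correlation of 0.05 over 105 pairs, the lowest -0.38, beside -0.012 for other numbers. Of 35 arrays 16 correlated best with an array of their own number, where 6 of 30 possible partners carried it, a hint of pairing from the data and not from the design. With the mouse number as a block all 25 calls were kept and 1 was gained, Cyp2b10 at 5 ppm (0.24, adjusted p = 0.0344, limma), and Ephx1 at 5 ppm stayed at -0.85. Over all genes, calls at 5 to 120 ppm numbered 10867 to 13169, but 2235 to 5445 with the axis, 4816 to 5836 with the interquartile range, and 23784 to 31699 of 45037 probe sets tested alone. At 1 ppm 420 genes were called, but 3 in a fit of the groups compared, 54 at an adjusted p under 0.01, 76 with array weights, 78 with the interquartile range, 175 without dim genes, 648 with the axis and 1204 probe sets alone. There the split was 165 higher and 255 lower, against 211 and 140 under quantile normalization and 168 and 151 under median centring. The trend from air called 12420 genes, against 5774 (axis), 1186 (interquartile range) and 14 (ppm). The trend over 5 to 120 ppm called 1, against 683 on rank. The F test of 7 groups called 14083, against 6651 and 7880, that among 5 to 120 ppm 5345, against 85 with the axis, and 10 against 5 ppm 4658, against 153 with the axis and 2639 at an adjusted p under 0.01. With 5 arrays a group the SE of a change against air was 0.0611 for Cyp2f2 and 0.743 for Cyp2e1, so only far larger changes could be called for Cyp2e1.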
